A study of Mus musculus with 19 samples.

Results

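The genes described here encode the T cell receptor complex and its coreceptors: Cd3d, Cd3e, Cd3g and Cd247 (the CD3 chains), Lck and Zap70 (the first kinases of the pathway), Cd4, Cd8a and Cd8b1 (the coreceptors) and Cd2 (an adhesion receptor). They were chosen by name, and each gene was read from its brightest probe set among those annotated with exactly 1 gene symbol. By this rule 9 of the 10 genes, of 30142 genes in all, had a value. No probe set was listed with Lck alone, so Lck was not analysed here.

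Expression was measured on Clariom D microarrays (also called MTA 1.0), with 1 infrarenal aorta of 1 mouse per array and 19 arrays in all. The treated mice received porcine pancreatic elastase (PPE), an enzyme that digests the elastin of the vessel wall and leads to an abdominal aortic aneurysm. The 4 groups were 7 male PPE, 5 male sham, 4 female PPE and 3 female sham mice. All were C57BL/6J mice, an inbred laboratory strain, operated on at 10 weeks of age. The aorta was clamped or ligated, opened and infused for 5 min at 120 mmHg, with 2.5 U/mL PPE in saline in the PPE groups and with saline alone in the sham groups, so the sham mice share the surgery and the pressure. The aorta below the left renal artery, down to where it divides, was taken at day 7. Each mouse was a separate sample, and the small number of arrays limits the precision of every value below.

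The T cell receptor recognises peptides held by MHC molecules. Its antigen-binding chains have no signalling tail of their own and depend on the CD3 delta, epsilon, gamma and zeta chains, whose phosphorylated motifs recruit the kinase ZAP-70. CD4 binds MHC class II and marks helper and regulatory T cells, whereas CD8, made of an alpha and a beta chain, binds MHC class I and marks cytotoxic T cells, and both bring the kinase LCK to the receptor. Several of these genes are not limited to T cells: NK cells also use CD247, ZAP-70 and CD2, some mouse dendritic cells carry CD4 or CD8 alpha, and lymph nodes hold many T cells. In RNA from whole tissue, more cells of a type and more RNA per cell cannot be told apart.

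The 3 CD3 genes of chromosome 9 lie together in the mouse genome (RefSeq annotation of GRCm38.p6). Cd3g occupies chr9:44969572-44980431 on the minus strand, Cd3d chr9:44981769-44987052 on the plus strand and Cd3e chr9:44998735-45009663 on the minus strand. The start positions used for the promoter windows of Cd3d and Cd3g below, 44981786 and 44980431, are 1355 bp apart, and the genes run away from each other. Cd8b1 (chr6:71322788-71337492) and Cd8a (chr6:71373427-71379171) are neighbours on chromosome 6, with a gap of 35935 bp, and Cd4 lies farther along the same chromosome at chr6:124864693-124888247. Cd247 (chr1:165779952-165871153) and Zap70 (chr1:36761798-36782821) are on chromosome 1 and Cd2 is at chr3:101275908-101287939. The 4 RefSeq promoter windows below, each 300 bases long, are printed because these genes rose in both sexes and the CD3 windows belong to 1 cluster whose members rose together. Letters are in lower case, 5′ to 3′ on the gene's strand, and capitals mark each match to the E-box CANNTG, the motif that E proteins such as E2A and HEB bind in developing T cells.
Cd3d, chr9:44981536-44981835, strand +: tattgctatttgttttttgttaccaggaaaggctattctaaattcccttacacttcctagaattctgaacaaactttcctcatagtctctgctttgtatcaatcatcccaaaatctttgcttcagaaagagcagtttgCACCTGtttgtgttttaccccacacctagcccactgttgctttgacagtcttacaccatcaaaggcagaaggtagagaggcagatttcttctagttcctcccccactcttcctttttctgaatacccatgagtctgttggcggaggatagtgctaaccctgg
Cd3g, chr9:44980382-44980681, strand −: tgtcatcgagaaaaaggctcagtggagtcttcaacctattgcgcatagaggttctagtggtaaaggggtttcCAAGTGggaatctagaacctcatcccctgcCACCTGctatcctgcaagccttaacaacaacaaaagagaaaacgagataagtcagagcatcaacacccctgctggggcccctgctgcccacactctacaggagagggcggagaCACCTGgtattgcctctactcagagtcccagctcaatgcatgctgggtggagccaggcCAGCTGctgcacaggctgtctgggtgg
Cd3e, chr9:45009562-45009861, strand −: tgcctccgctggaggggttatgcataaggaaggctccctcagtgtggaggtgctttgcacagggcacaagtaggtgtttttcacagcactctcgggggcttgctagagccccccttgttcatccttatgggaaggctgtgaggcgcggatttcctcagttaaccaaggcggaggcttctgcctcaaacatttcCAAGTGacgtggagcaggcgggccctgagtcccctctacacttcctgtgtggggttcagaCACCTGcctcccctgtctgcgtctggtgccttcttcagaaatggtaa
Cd8a, chr6:71373177-71373476, strand +: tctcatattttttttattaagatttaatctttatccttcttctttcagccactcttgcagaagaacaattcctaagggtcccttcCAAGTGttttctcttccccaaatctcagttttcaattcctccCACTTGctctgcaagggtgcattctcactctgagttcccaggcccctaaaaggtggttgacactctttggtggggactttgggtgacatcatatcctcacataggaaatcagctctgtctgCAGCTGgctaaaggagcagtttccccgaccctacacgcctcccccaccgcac
Of the 10 genes, 7 had a RefSeq window in the table used here, with 10 windows in all because Lck and Zap70 have several starts. CANNTG was present in 10 of the 10 windows and in 72.3% of all 32851 windows. The form CAGGTG, searched with its reverse complement CACCTG and contained within CANNTG, was in 8 of the 10 windows and in 20.2% of all windows, and it was looked at separately only after the matches were seen. The ETS core AGGAAG, searched on both strands, was in 7 of the 10 windows (35.4% of all windows). The RUNX motif TGTGGT was in 2 (16.8%), the CRE half-site TGACGT in 2 (7.51%), the GATA motif AGATAA in 1 (11.2%) and TATAAA in 0 (13.6%), all on both strands. These matches describe letters in the windows, and binding was not measured.

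In male aortae all 9 measured genes were higher 7 days after PPE than after sham surgery. Over all 30142 genes, 9.67% were called higher in males at a Benjamini-Hochberg adjusted p below 0.05 (limma, all 19 arrays in 1 fit). In female aortae 7 of the 9 genes were called higher, against 2.77% of all genes, and Cd247 and Zap70 did not pass the test. The median log2 difference of the 9 genes was 1.30 in males and 1.36 in females, and that of all genes was 0.01 and −0.02. Every male PPE array lay above every male sham array for 9 of 9 genes (4.69% of all genes), and every female PPE array above every female sham array for 8 of 9 (11.0% of all genes), with Zap70 overlapping. In 8 of the 9 genes the groups were separate in both sexes, as in 3.47% of all genes.

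Some arrays stood apart from the rest of their groups. Male sham array 4 had the highest means of adipocyte, B cell and lymph node genes among the male sham arrays. An earlier analysis of these data had set it apart, together with male PPE array 1 and male sham array 5. Without these 3 arrays all 9 genes were still called higher in males, with log2 differences of 2.06 for Cd3e, 1.56 for Cd3g, 1.32 for Cd3d, 1.56 for Cd4, 1.48 for Cd8a, 1.03 for Cd8b1, 1.52 for Cd2, 0.42 for Cd247 and 0.40 for Zap70. In that setting 2758 of 30142 genes were called higher in males. Female PPE arrays 2 and 3 were high for B cell and lymph node genes, and without them 1 of the 9 genes was called in females. Over all 30142 genes, 85 were then called higher in females, against 835 with all arrays.

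**Figure D1:**
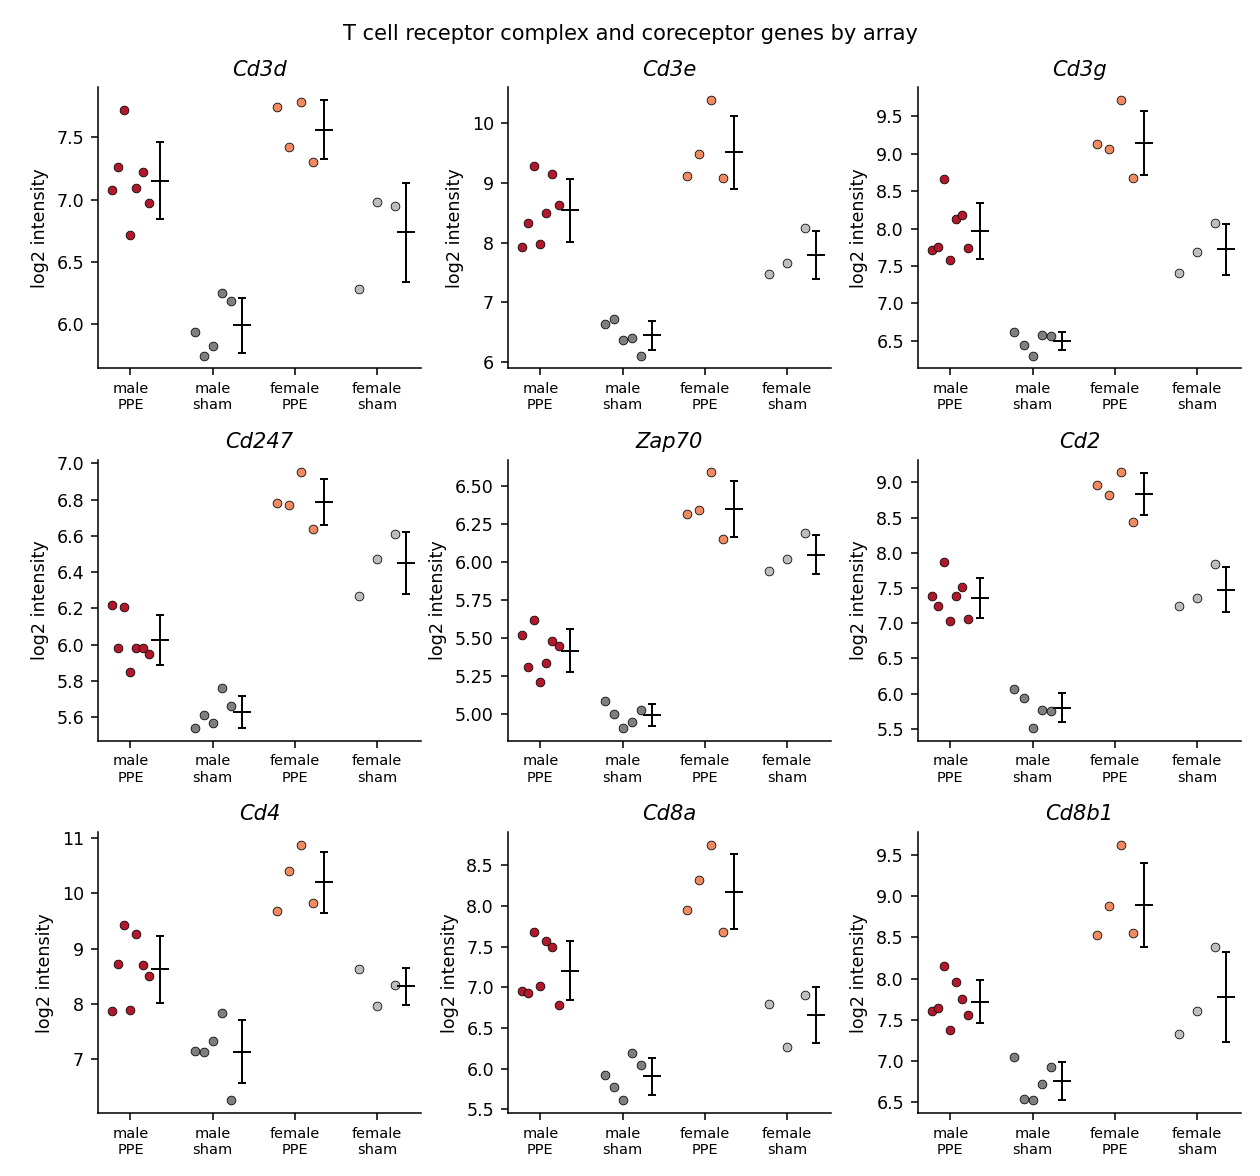
Log2 intensity of each of the 9 measured genes (y axis, own scale per gene) in male PPE, male sham, female PPE and female sham aortae (x axis), with 1 point per array and the group mean ± SD beside it. PPE arrays lie above the sham arrays of the same sex for every gene except Zap70 in females, where 6.15 in a PPE array lies below 6.19 in a sham array.

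Cd3e, whose product pairs with the delta and gamma chains, had the largest difference of the 9 genes in males. The 7 male PPE arrays had log2 intensities with a lowest value of 7.93, a median of 8.49 and a highest of 9.28, against 6.64, 6.73, 6.38, 6.41 and 6.11 in the 5 male sham arrays. The female PPE arrays had 9.11, 9.48, 10.38 and 9.07, against 7.47, 7.66 and 8.25 in the female sham arrays. The lowest PPE array thus lay above the highest sham array of its sex in both cohorts. Cd3e was 4.24-fold higher in male PPE aortae (log2 difference 2.08 ± 0.26 SE, adjusted p = 1.3e-05) and 3.29-fold higher in female PPE aortae (1.72 ± 0.33, adjusted p = 0.00762). This difference placed Cd3e at rank 133 of all genes in males and at rank 182 in females.

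Cd3g, the gamma chain, followed closely. Its male PPE arrays had a lowest value of 7.58, a median of 7.76 and a highest of 8.66, against 6.61, 6.44, 6.30, 6.57 and 6.56 in male sham. Its female PPE arrays had 9.13, 9.06, 9.72 and 8.68, against 7.40, 7.69 and 8.08 in female sham. The rise was nearly the same in both sexes: 1.47 ± 0.19 in males (2.77-fold, adjusted p = 1.69e-05) and 1.42 ± 0.24 in females (2.68-fold, adjusted p = 0.00373). Cd3d, the delta chain, had a lowest value of 6.72, a median of 7.09 and a highest of 7.72 in male PPE arrays, against 5.94, 5.75, 5.83, 6.25 and 6.19 in male sham. In females it had 7.74, 7.42, 7.78 and 7.30 in PPE arrays, against 6.28, 6.98 and 6.95 in sham. The female sham array at 6.28 stood below the other two sham arrays, and the PPE arrays still lay above all of them. Cd3d rose by 1.16 ± 0.16 in males (2.23-fold, adjusted p = 3.93e-05) and by 0.82 ± 0.21 in females (1.77-fold, adjusted p = 0.0308). The female call of Cd3d was lost without female PPE array 1 (adjusted p = 0.0952), PPE array 3 (0.0969), sham array 1 (0.195) or sham array 2 (0.0592).

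Cd247 encodes the zeta chain, which carries most of the receptor's signalling motifs. It moved far less than the other CD3 genes on these arrays. Male PPE arrays had 5.85 as lowest, 5.98 as median and 6.22 as highest value, against 5.54, 5.61, 5.57, 5.76 and 5.66 in male sham. Female PPE arrays had 6.78, 6.77, 6.95 and 6.64, against 6.27, 6.47 and 6.61 in female sham. The groups did not overlap, by a margin of hundredths of a log2 unit in females. The difference was 0.40 ± 0.08 in males (1.32-fold, adjusted p = 0.00125) and 0.34 ± 0.10 in females, which missed the threshold (adjusted p = 0.0802).

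Zap70, the kinase that docks on the phosphorylated chains, moved by a similar amount. Male PPE arrays had 5.21 as lowest, 5.45 as median and 5.62 as highest value, against 5.09, 5.00, 4.91, 4.95 and 5.03 in male sham. Female PPE arrays had 6.32, 6.34, 6.59 and 6.15, against 5.94, 6.02 and 6.19 in female sham. The fitted difference was 0.42 ± 0.08 in males (1.34-fold, adjusted p = 0.000883) and 0.30 ± 0.11 in females (adjusted p = 0.139). The signal of this probe set was dim. As a measure of unspecific signal, the 95th percentile of 1225 olfactory receptor genes was taken on each array, a measure chosen after the values were seen. Zap70 exceeded it in 1 of 7 male PPE, 0 of 5 male sham, 2 of 4 female PPE and 0 of 3 female sham arrays. Cd247 exceeded it in 7 of 7 male PPE, 1 of 5 male sham, 4 of 4 female PPE and 1 of 3 female sham arrays. Cd2 and Cd8a exceeded it in all PPE arrays of both sexes, whereas in male sham arrays Cd2 exceeded it in 2 of 5 and Cd8a in 4 of 5, and in female sham arrays Cd2 in 3 of 3 and Cd8a in 2 of 3. The other members exceeded it on every array, though some by little on sham arrays. Cd3d exceeded it by 0.09 to 0.27 log2 units in male sham and by 0.01 to 0.50 in female sham arrays. In male sham arrays the smallest margin was 0.01 for Cd3e and 0.15 for Cd4. Near this level a fold change on an array can understate the change in RNA. Its part in the small values of Zap70 and Cd247, and in the values of Cd2, Cd8a, Cd3d, Cd3e and Cd4, was not tested.

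Cd2, which holds T cells and NK cells to partner cells through CD48 in mice, had the lowest adjusted p of the 9 genes in both sexes. Male PPE arrays had 7.03 as lowest, 7.39 as median and 7.87 as highest value, against 6.06, 5.93, 5.51, 5.76 and 5.75 in male sham. Female PPE arrays had 8.96, 8.82, 9.14 and 8.43, against 7.24, 7.35 and 7.84 in female sham. The gap between the groups was wide in males. Cd2 rose by 1.56 ± 0.15 in males (2.94-fold, adjusted p = 1.91e-06) and by 1.36 ± 0.20 in females (2.57-fold, adjusted p = 0.00235). Cd48, which encodes that partner, rose too, by 1.69 in males and 1.31 in females.

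The coreceptor of helper T cells, Cd4, was higher after PPE in both sexes. Male PPE arrays had 7.87 as lowest, 8.71 as median and 9.42 as highest value, against 7.14, 7.12, 7.32, 7.84 and 6.25 in male sham. Female PPE arrays had 9.69, 10.41, 10.88 and 9.82, against 8.64, 7.97 and 8.34 in female sham. The male groups came within hundredths of a log2 unit of each other, with male sham array 4 just under the lowest PPE array and male sham array 5 well below the other sham arrays. Cd4 rose by 1.49 ± 0.30 in males (2.82-fold, adjusted p = 0.00147) and by 1.88 ± 0.39 in females (3.69-fold, adjusted p = 0.0105), with the largest standard error of the 9 genes in each sex. The female call of Cd4 was lost without female sham array 2 (adjusted p = 0.0708).

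Cd8a, the alpha chain of the cytotoxic T cell coreceptor, had 6.78 as lowest, 7.02 as median and 7.68 as highest value in male PPE arrays, against 5.92, 5.78, 5.61, 6.19 and 6.04 in male sham. Its female PPE arrays had 7.95, 8.32, 8.75 and 7.68, against 6.80, 6.27 and 6.91 in female sham. It rose by 1.30 ± 0.19 in males (2.46-fold, adjusted p = 8.97e-05) and by 1.51 ± 0.25 in females (2.86-fold, adjusted p = 0.00344). Cd8b1, the beta chain, is the more selective mark of cytotoxic T cells, since alpha chain homodimers occur on other cells. Male PPE arrays had 7.37 as lowest, 7.64 as median and 8.15 as highest value, against 7.05, 6.54, 6.53, 6.72 and 6.93 in male sham. Female PPE arrays had 8.53, 8.88, 9.62 and 8.55, against 7.33, 7.61 and 8.38 in female sham. Cd8b1 rose by 0.97 ± 0.20 in males (1.95-fold, adjusted p = 0.00176) and by 1.12 ± 0.26 in females (2.18-fold, adjusted p = 0.0195). Both chains of CD8 thus rose, and PPE and sham arrays did not overlap for either chain in either sex. The female call of Cd8b1 was lost without female PPE array 3 (adjusted p = 0.0605), sham array 1 (0.129) or sham array 2 (0.105).

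**Figure D2:**
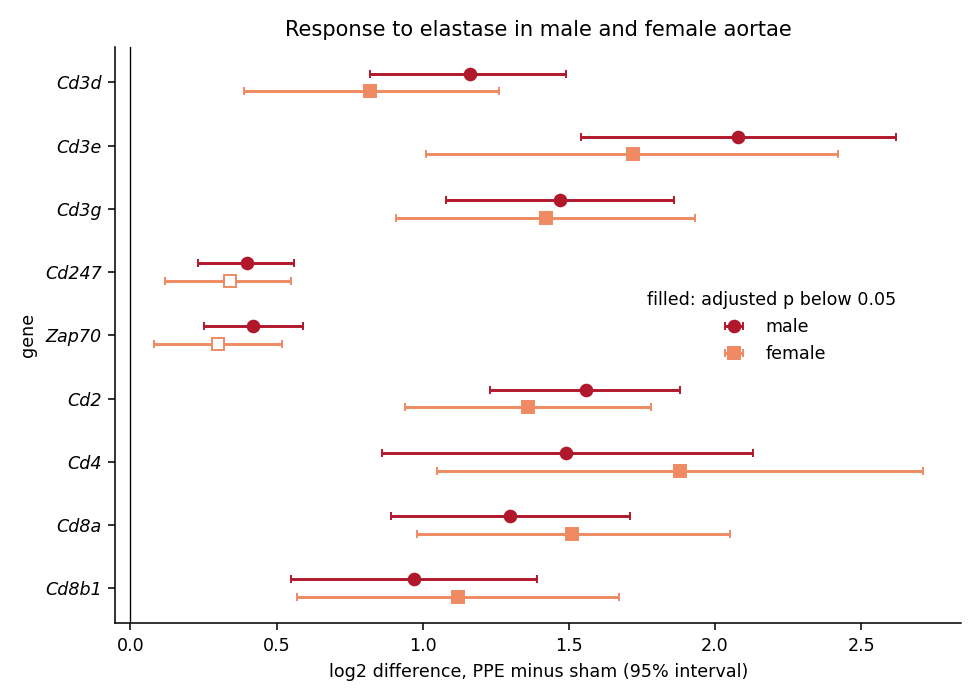
Log2 difference, PPE minus sham (x axis), of the 9 measured genes (y axis) in males (circles) and females (squares), with 95% intervals and filled symbols for adjusted p below 0.05. The intervals of the sexes overlap for every gene, and Cd247 and Zap70 lie nearest to 0, with open symbols in females.

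Whether CD4 and CD8 transcripts moved by the same amount was tested within arrays, as the log2 value of one gene minus that of the other, with two-sided exact permutation tests adjusted over 18 tests (9 pairs in each sex). The smallest p such a test can give is 0.00253 for 7 against 5 male arrays and 0.0571 for 4 against 3 female arrays, so no female pair could pass. The tests of Cd247 and Zap70 against Cd3e are not given, because the signal of both was not above the olfactory receptor level on most sham arrays. Cd8a minus Cd4 was −0.91, −1.80, −1.74, −0.87, −1.70, −1.21 and −1.73 in the male PPE arrays, against −1.22, −1.34, −1.71, −1.65 and −0.21 in male sham. In females it was −1.74, −2.09, −2.13 and −2.14 in PPE arrays, against −1.84, −1.70 and −1.43 in sham. The groups overlapped in both sexes. On sham arrays Cd8a lay −0.06 to 0.20 log2 units from the olfactory receptor level in males and −0.21 to 0.53 in females. Cd4 lay 0.15 to 1.81 and 1.49 to 2.37 above that level. The part of the low Cd8a signal in the changes below was not tested. The change of Cd8a minus Cd4 with PPE was −0.20 in males (95% interval −0.85 to 0.45, exact permutation p = 0.513) and −0.37 in females (−0.76 to 0.02, exact permutation p = 0.114). These intervals leave room for a shift toward Cd4 of up to 0.85 log2 units in males and 0.76 in females, so a constant balance was not shown. One array weighed heavily on the male value: without male sham array 5 it was 0.06. For Cd8b1 minus Cd4 the change was −0.53 in males (−1.23 to 0.17, exact permutation p = 0.136) and −0.76 in females (−1.66 to 0.13, exact permutation p = 0.229).

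Between the chains of CD8, Cd8a minus Cd8b1 shifted by 0.33 in males (0.06 to 0.60), with an exact permutation p of 0.0278 that did not pass adjustment (0.1), and by 0.39 in females (−0.29 to 1.08, exact permutation p = 0.286). The part of the low Cd8a signal of sham arrays in these shifts was not tested. Cd3e rose more than Cd8a in males. Cd3e minus Cd8a shifted by 0.79 (0.29 to 1.28, exact permutation p = 0.00505, adjusted 0.0303), although the Cd8a signal of male sham arrays lay close to the olfactory receptor level given above, whose part in this shift was not tested. In females the shift was 0.20 (−0.40 to 0.81, exact permutation p = 0.514). The male call was lost without any one of male PPE arrays 2, 3, 4, 6 and 7 or male sham arrays 1, 3, 4 and 5 (adjusted p = 0.0519 to 0.0727). With 1 male array left out the shift was 0.67 to 0.89, and fewer arrays also raise the smallest p that the test can give. Cd3e minus Cd4 shifted by 0.59 in males (0.01 to 1.17, adjusted exact permutation p = 0.126) and by −0.17 in females (−0.93 to 0.60, adjusted 0.666). Cd2 minus Cd3e shifted by −0.53 in males (−0.95 to −0.11, adjusted exact permutation p = 0.1) and by −0.36 in females (−1.04 to 0.33, adjusted 0.316). On male sham arrays Cd2 lay −0.35 to 0.34 log2 units from the olfactory receptor level and exceeded it on 2 of 5. The part of this low Cd2 signal in the male shift was not tested.

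**Figure D3:**
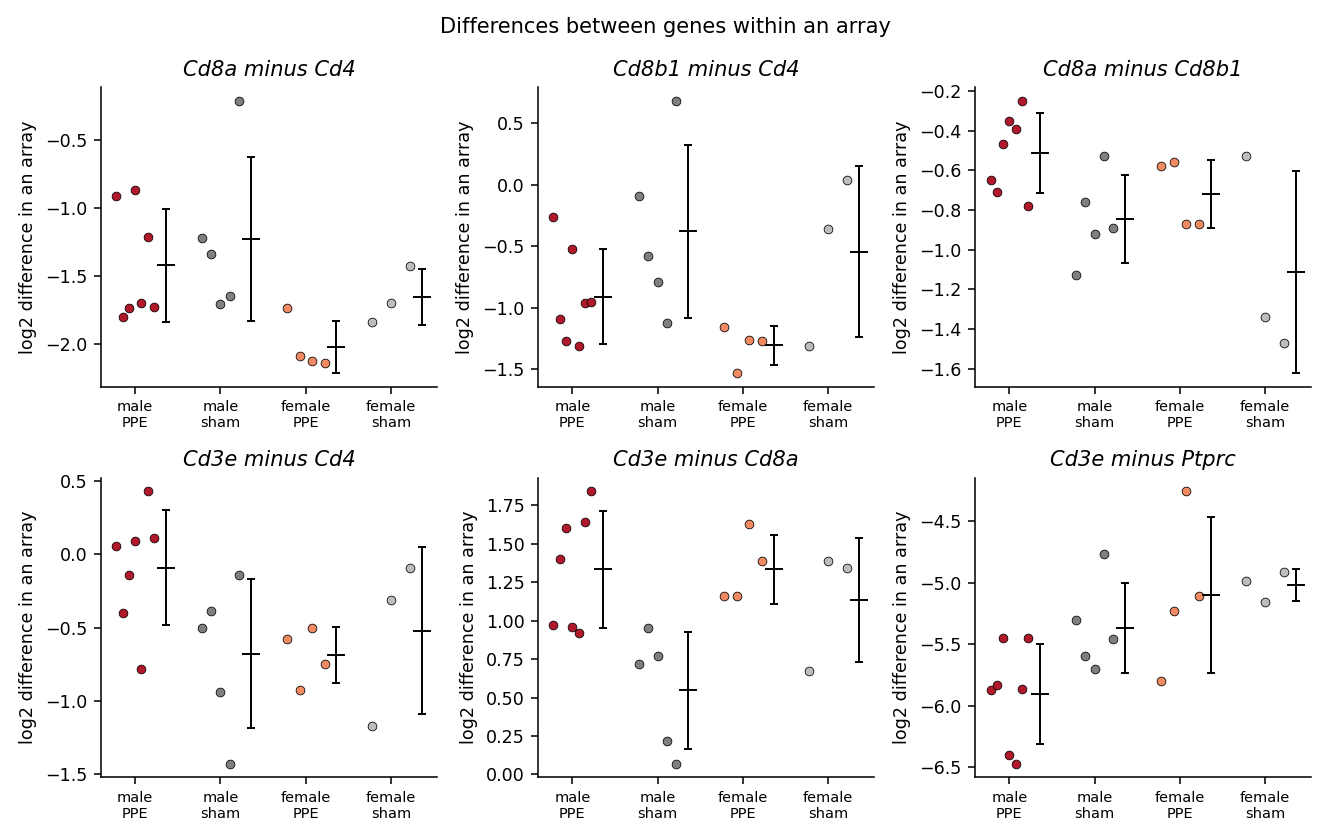
Log2 value of one gene minus that of another in the same array (y axis) for 6 pairs, by group (x axis), with 1 point per array and the group mean ± SD. For Cd8a minus Cd4 the PPE and sham points overlap in both sexes, with male sham array 5 at −0.21 above all others, and Cd3e minus Cd8a is higher in male PPE than in male sham with a few overlapping arrays.

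Cd3e was also set against Ptprc, which encodes CD45, the surface phosphatase of all white blood cells. Ptprc rose by 2.62 ± 0.23 in males (6.16-fold, adjusted p = 9.76e-07) and by 1.80 ± 0.30 in females (3.47-fold, adjusted p = 0.00339). Cd3e minus Ptprc shifted by −0.54 in males (−1.05 to −0.03, exact permutation p = 0.0404, adjusted 0.121) and by −0.08 in females (−1.06 to 0.90, exact permutation p = 0.8). Both shifts lay below 0, and the female interval also allows a larger rise of Cd3e than of Ptprc. Of 8 genes shared by all white blood cells, 8 were higher in males and 7 in females, with medians of 1.63 and 1.16.

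The response of these genes was not shown to differ between the sexes. The difference of the responses, male minus female, was called for 0 of 9 genes by limma, against 0.541% of all genes, and for 0 of 9 at an unadjusted p below 0.05. It was 0.37 for Cd3e (95% interval −0.52 to 1.25, adjusted p = 0.822), 0.34 for Cd3d (−0.22 to 0.89, adjusted p = 0.721) and 0.05 for Cd3g (−0.59 to 0.69, adjusted p = 0.972). For the coreceptors it lay on the other side of 0, at −0.39 for Cd4 (−1.43 to 0.66, adjusted p = 0.842), −0.22 for Cd8a (−0.89 to 0.45, adjusted p = 0.864) and −0.16 for Cd8b1 (−0.85 to 0.54, adjusted p = 0.913). For Cd2 it was 0.19 (−0.34 to 0.72, adjusted p = 0.844). The sign of Cd3g and of Cd8b1 changed when single arrays were left out. All 7 intervals span 0 and still allow differences of 0.5 log2 units or more in at least one direction. Averaged over the sexes, 9 of 9 genes were called higher, against 9.19% of all genes. Levels themselves were not compared between the sexes, since the array medians over all probe sets were 5.61 to 5.85 in male and 6.17 to 6.31 in female arrays. For any gene named here, a sex difference of the response cannot be told apart from a difference between the male and female sets of arrays.

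The 9 genes tended to be high in the same mice, less clearly so in male sham aortae. In male PPE aortae, array 3 had the highest value for 8 of 9 genes and array 4 the lowest for 6. In female PPE aortae, array 3 was highest for 9 of 9 genes and array 4 lowest for 7, and in female sham aortae array 3 was highest for 7 and array 1 lowest for 7. The male sham aortae had no common highest array: arrays 1 and 4 were each highest for 4 genes, and array 3 was lowest for 5. Across the 19 arrays, deviations from the group means correlated with an r of 0.24 to 0.89 over the 36 pairs of members, with a median of 0.68. The lowest was Cd247 with Cd4 and the highest Cd3g with Cd2. With Cd3e, r was 0.67 for Cd4, 0.66 for Cd8a and 0.74 for Cd8b1. With Cd3g it was 0.56 for Cd4, 0.80 for Cd8a and 0.87 for Cd8b1, and with Cd3d it was 0.29, 0.44 and 0.63 in the same order. Cd4 and Cd8a correlated at 0.65. All values of an array share its RNA and its hybridisation, so these are descriptions.

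Within the 7 male PPE aortae alone, 8 pairs were tested by exact permutation, and none passed adjustment over the pairs. Cd3e and Cd4 had a Pearson r of 0.76 (permutation p = 0.0456, adjusted 0.162) and a Spearman rho of 0.71 (permutation p = 0.0881, adjusted 0.272), and r was 0.80 without the 2 arrays farthest from the Cd3e median. Cd3e and Cd8a had an r of 0.69 (permutation p = 0.124) and a rho of 0.46 (permutation p = 0.302), and r was 0.14 without the 2 farthest arrays, so that relation rested on them. The same held for Cd3e with Cd2, with an r of 0.70 (permutation p = 0.0905) that became −0.09. Cd4 and Cd8a had an r of 0.74 (permutation p = 0.0802) and a rho of 0.61 (permutation p = 0.167), and r was 0.82 without the 2 farthest.

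The genes whose deviations most resembled the mean of Cd3d, Cd3e and Cd3g over the 19 arrays, among 19379 genes compared, were Gimap3 (r = 0.93), Cd28 (0.92), Skap1 (0.92), Rasal3 (0.91), Rasgrp1 (0.90), Tbc1d10c (0.90), Cd96 (0.89) and Cd6 (0.88). Gimap3 encodes a GTPase of lymphocytes and Cd28 the costimulatory receptor of T cells. For Gimap3 the likeness was 0.92 over the 12 male and 0.96 over the 7 female arrays, and for Cd28 it was 0.92 and 0.97. Gimap3 rose by 1.94 in males (adjusted p = 3.82e-06) and by 2.03 in females (adjusted p = 0.0018), and Cd28 by 0.90 and 0.64 (adjusted p = 2.01e-06 and 0.00571). For Cd8a the most similar genes were Sidt1 (0.85), Tespa1 (0.84), Il2rb (0.83), Satb1 (0.82) and Tox (0.81). Il2rb, a subunit of the receptors for IL-2 and IL-15, rose by 2.71 in males and 1.91 in females. For Cd4 they were Ralgps2 (0.81), Ripor2 (0.79), Cd22 (0.79), Slamf6 (0.78) and Satb1 (0.78). Cd22 is a B cell receptor inhibitor and was at 0.45 in males (adjusted p = 0.242) and 1.38 in females (adjusted p = 0.0198), whereas Slamf6, a receptor of T, B and NK cells, rose by 1.75 and 2.10.

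Downstream of the receptor, 18 of 20 listed genes of proximal signalling were measured. In males 17 were higher and 1 lower, and in females 14 were higher and 0 lower. The list's median log2 difference was 0.92 in males and 0.85 in females, against 1.30 and 1.36 for the receptor genes. Lcp2, which encodes the adaptor SLP-76, rose by 2.16 in males (adjusted p = 2.34e-06) and 1.41 in females (adjusted p = 0.00919), and the phosphatase gene Ptpn22 by 2.25 and 1.85 (adjusted p = 1.54e-06 and 0.00252). Vav1, an exchange factor of blood cells, rose by 1.79 and 1.47. Lat, the membrane adaptor that ZAP-70 phosphorylates, rose by 0.67 in males (adjusted p = 0.00523) and was at 0.69 in females (adjusted p = 0.0717). The phospholipase gene Plcg1, which is used in many cell types, fell by 0.53 ± 0.08 log2 units in males (adjusted p = 8.19e-05) and was at 0.07 in females (adjusted p = 0.869). The difference of its responses, male minus female, was −0.60 ± 0.13 (adjusted p = 0.0455), but this call was lost in 22 of 29 alternative settings, among them 16 of the 19 that left out a single array (adjusted p up to 0.243).

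Genes listed for the ligands of these receptors also rose. Of 8 listed ligand genes, 7 were higher in males and 6 in females, with medians of 1.81 and 0.98. The class I genes H2-K1 and H2-D1, whose products CD8 binds, rose by 1.92 and 1.56 in males and by 1.32 and 1.07 in females. The class II genes of the list included H2-Aa, at 2.08 in males and 0.86 in females, and H2-Eb1, at 2.75 and 1.14. Whether their products reached the cell surface in this strain and bound CD4 was not measured. The difference of the H2-Eb1 responses, male minus female, was 1.62 ± 0.35 (adjusted p = 0.0429), but this call was lost in 18 of 29 alternative settings, among them 14 of the 19 that left out a single array (adjusted p up to 0.203). Of 9 measured transcription factors of the T cell lineage, 7 were higher in males and 4 in females, with medians of 0.68 and 0.63. Lef1 was higher by 0.68 in males (adjusted p = 0.0204) and 1.02 in females (adjusted p = 0.0298), and Satb1 by 0.69 and 0.97. The male means of Lef1, 5.49 in PPE and 4.81 in sham arrays, lay below the olfactory receptor level of male arrays (5.55 to 6.10). Zbtb7b, the factor that commits thymocytes to the CD4 lineage, was at 0.12 in males (adjusted p = 0.263) and 0.03 in females (adjusted p = 0.942). Runx3, its counterpart of the CD8 lineage, which NK cells also express, rose by 0.78 in males (adjusted p = 0.000103) and was at 0.53 in females (adjusted p = 0.0648).

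Genes of naive and recirculating T cells were higher for 2 of 6 in each sex. Ccr7, the receptor that guides T cells and dendritic cells to lymph nodes, rose by 1.30 in males (adjusted p = 3.87e-06) and 0.70 in females (adjusted p = 0.0343), and the IL-7 receptor gene Il7r by 1.48 and 1.37 (adjusted p = 0.000248 and 0.02). S1pr1, which lets lymphocytes leave lymphoid organs and is also high in endothelium, was at 0.19 in males (adjusted p = 0.283) and 0.34 in females (adjusted p = 0.245). Of 5 measured thymocyte genes 1 was higher in males, Dntt by 0.37 (adjusted p = 0.0432), and 0 in females. Dntt had means of 5.33 in male PPE and 4.95 in male sham arrays. All group means of Dntt, Rag2, Ptcra and Arpp21 lay below the olfactory receptor level, 5.55 to 6.10 in male and 6.27 to 6.57 in female arrays. These values thus say little about thymocyte transcripts. Of 3 measured genes of gamma delta T cells, 0 were higher in either sex, and Sox13 fell by 0.38 in males (adjusted p = 0.00109). The male means of Cd163l1 and Blk lay within the range of that level. The constant chains of the T cell receptor itself had no probe set with 1 symbol (0 of 7 listed) and were not analysed here.

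**Figure D4:**
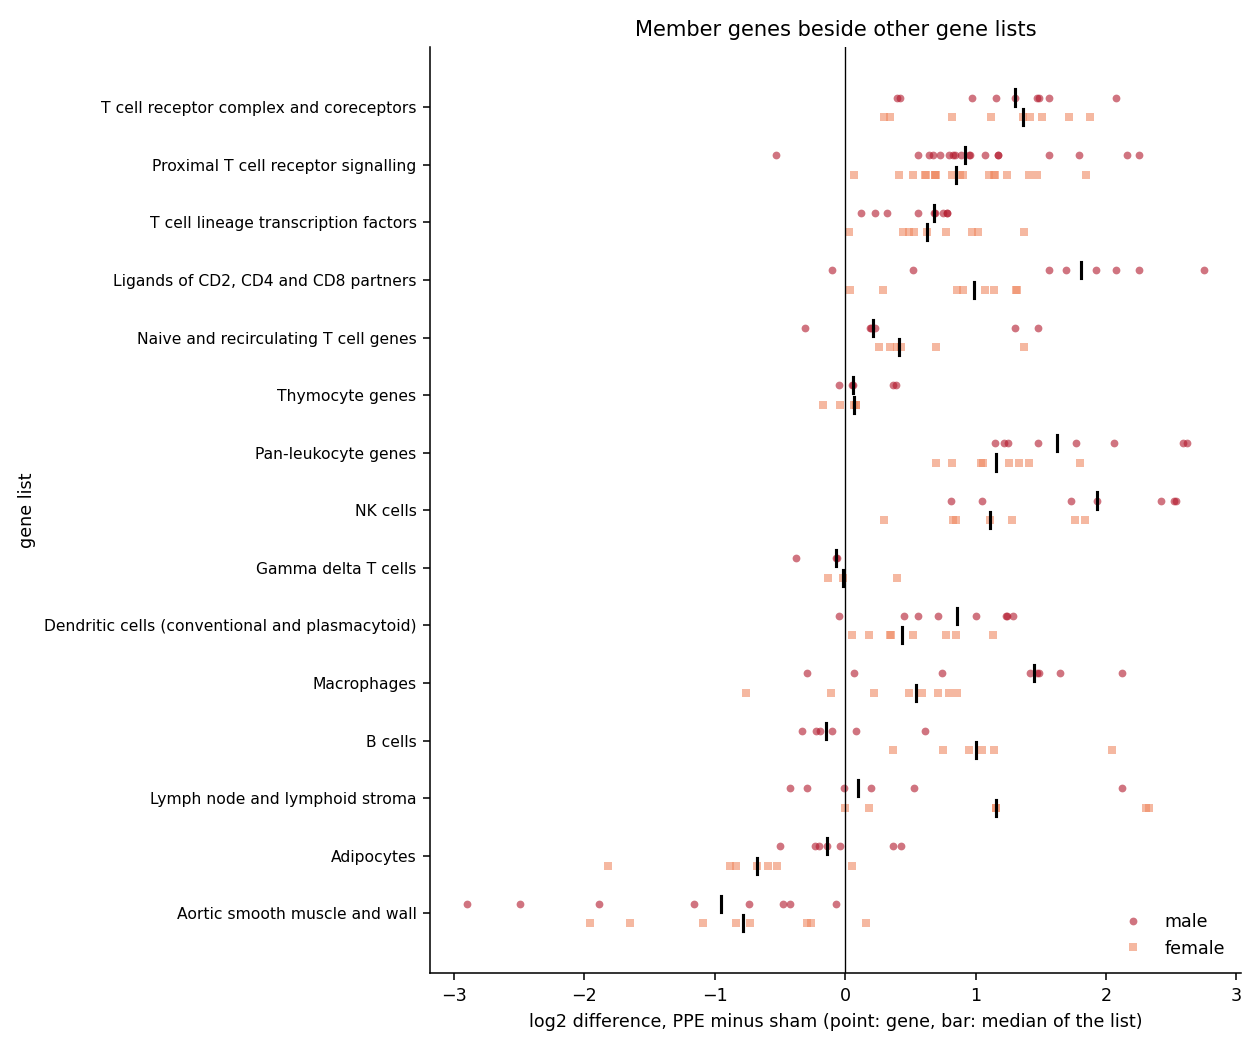
Log2 difference, PPE minus sham (x axis), of each measured gene in 15 lists (y axis), with circles for males, squares for females and a black bar at the list's median. The receptor and coreceptor genes lie entirely above 0, whereas the B cell list is centred near 0 in males (median −0.15) and higher in females (1.00).

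Other cell types that carry some of these genes moved as well. NK cell markers were higher for 7 of 7 measured genes in males and 4 of 7 in females. Klrd1 and Klrk1, receptors of NK cells and of some CD8 T cells, rose by 2.42 and 2.52 in males and by 1.76 and 1.84 in females. Ncr1, the more selective NK marker, rose by 2.54 in males (adjusted p = 4.78e-06) and was at 1.28 in females (adjusted p = 0.0544). The mean of the NK list was 7.43 to 8.36 in male PPE and 5.91 to 6.17 in male sham arrays, and 7.76 to 8.48 in female PPE and 6.81 to 7.08 in female sham arrays. Dendritic cell markers were higher for 7 of 8 in males and 3 of 8 in females, and macrophage markers for 5 of 8 and 0 of 8. Their part in the rise of Cd2, Cd247, Zap70, Cd4 and Cd8a was not tested. The smooth muscle genes that define the aortic wall were present on all arrays (list means of 13.56 or more), and 6 of 8 wall genes were lower in males (9.98% of all genes) and 3 of 8 in females (1.45% of all genes). The mean of adipocyte genes was 8.84 to 9.80 in male PPE arrays, against 12.80 in male sham array 4 and at most 9.12 in the other male sham arrays, and 0 of 7 adipocyte genes were called in either sex.

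B cell and lymph node genes were high in the same female PPE array as the members. B cell markers were higher for 0 of 6 in males and 2 of 6 in females, with medians of −0.15 and 1.00. The 2 were Cd79b (1.14, adjusted p = 0.0457) and Ms4a1, which encodes CD20 (2.05 ± 0.50, adjusted p = 0.0247). Ms4a1 had 8.47, 9.85, 10.42 and 8.50 in female PPE arrays, against 7.37, 6.75 and 7.67 in female sham. In males it was at −0.19 (adjusted p = 0.809), and the difference of the responses, −2.24, did not pass the test (adjusted p = 0.128). Of 6 measured lymph node genes, 1 was higher in males (Cxcl13, by 2.12, adjusted p = 0.0377) and 0 in females, with medians of 0.10 and 1.16. The mean of the lymph node list was 8.05, 9.18, 10.17 and 8.37 in female PPE arrays, against 7.59 to 7.86 in female sham, and 7.41 to 8.04 in male PPE arrays against 6.90 to 7.97 in male sham. Glycam1, a gene of lymph node vessels, reached 13.22 in female PPE array 3, against 7.18, 8.25 and 7.60 in the other female PPE arrays and 6.51, 6.63 and 7.07 in female sham. Female PPE arrays 2 and 3 were thus the highest for B cell and lymph node genes, and array 3 was also the highest for all 9 receptor and coreceptor genes.

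Without female PPE arrays 2 and 3, a setting added after the values were seen, 1 of 9 members was still called higher in females, and only 85 genes of all were called higher. That member was Cd2, at 1.22 (adjusted p = 0.0453). Cd3e was at 1.30 (adjusted p = 0.118), Cd3g at 1.18 (0.0664), Cd4 at 1.44 (0.185), Cd8a at 1.16 (0.0736), Cd8b1 at 0.77 (0.241) and Cd3d at 0.78 (0.212). Each of these differences stayed above 0 with 2 PPE arrays left against 3 sham arrays. In the same setting 1 of 18 proximal signalling genes, 1 of 8 ligand genes, 3 of 7 NK cell genes, 0 of 8 genes shared by white blood cells and 0 of 6 B cell genes were called higher in females. The part of lymphoid tissue in the female values was not tested beyond this. In males the mean of the B cell list was 6.14 to 6.53 in PPE arrays and 5.82 to 7.01 in sham arrays, and the median of the lymph node mean was 7.66 in PPE arrays and 7.33 in sham arrays. The 7.01 came from male sham array 4, which also had the highest lymph node mean (7.97) and Cd4 value (7.84) of the male sham arrays. Without this array the male difference of Cd4 was 1.67, against 1.49 with it. The part of B cells and lymphoid tissue in the male values was not tested either.

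**Figure D5:**
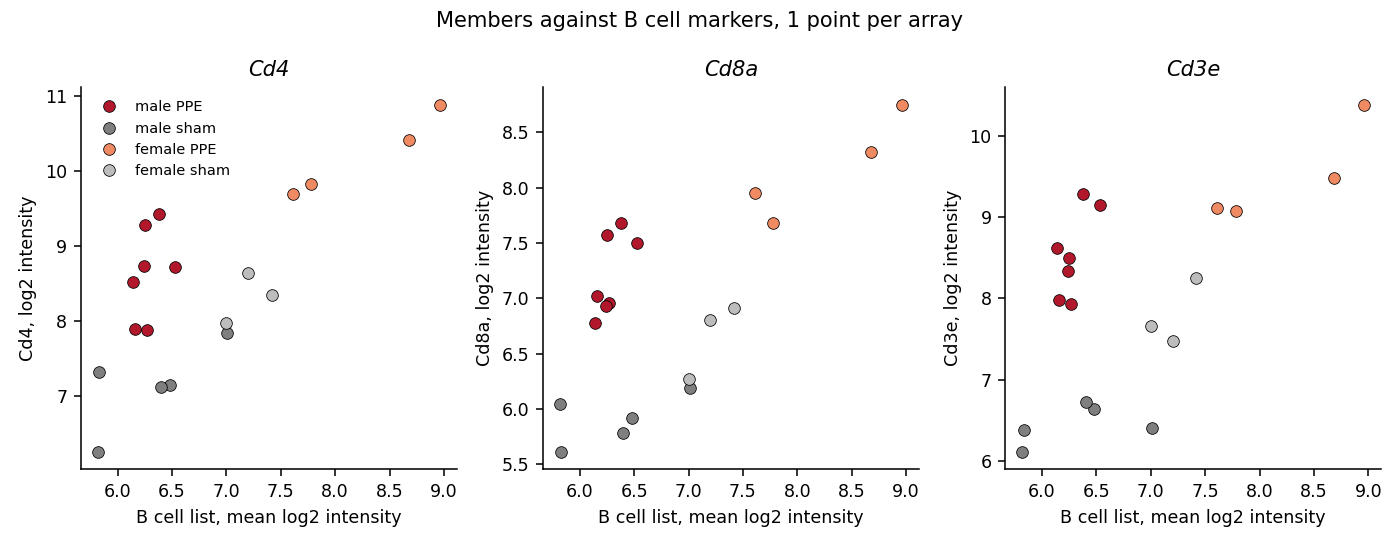
Log2 intensity of Cd4, Cd8a and Cd3e (y axes) against the mean log2 intensity of the B cell list (x axis), with 1 point per array and colours for the 4 groups. The male PPE points sit above the male sham points, with B cell means of 6.14 to 6.53 in PPE and 5.82 to 7.01 in sham arrays, and in females the 2 PPE arrays with the highest B cell means, 8.96 and 8.68, also have the highest Cd4, Cd8a and Cd3e values.

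The genes next to the members on the chromosome were looked at after the values were seen. Beside the CD3 cluster, Ube4a was at 0.15 in males (adjusted p = 0.337) and −0.11 in females (adjusted p = 0.806), and Mpzl2 at 0.19 (0.391) and −0.13 (0.836). Beside the CD8 genes, Rmnd5a was at 0.02 (0.927) and −0.04 (0.945). Next to Cd4, Lag3, which encodes a CD4-related receptor of activated T cells, rose by 0.30 ± 0.06 in males (adjusted p = 0.00231) and was at 0.14 in females (adjusted p = 0.54), and Gpr162 rose by 0.43 ± 0.10 in males (adjusted p = 0.00473) and was at 0.21 in females (adjusted p = 0.537). Of the 11 measured neighbours of the 6 loci, 3 were higher and 2 lower in males and 0 were called in females.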

How the data were processed

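The deposited values are log2 intensities; the submitters' processing notes name the Transcriptome Analysis Console and mm10. The software version, summarisation and background steps were not given in the sources used here. They were used without further normalization. Of 65956 probe sets, 30604 had 1 gene symbol, 2146 several and 33206 none listed. Symbols of 827 were updated through RefSeq (GRCm38.p6), and the brightest was kept for the 355 genes with several, which left 30142 genes. Each measured member had 1 probe set. Group means over the 19 arrays were fitted by lmFit and eBayes of limma (3.58.1, under R 4.3.3), with Benjamini-Hochberg adjustment over all genes and calls at 0.05, and the procedure was tested on simulated data. Differences between members within arrays were tested by exact permutation of treatment labels within each sex (scipy 1.17.1), over 18 tests, with intervals from the pooled variance. The members and the gene lists were chosen with earlier results of these data known. The rule for naming genes covered all members, the first 2 and the 2 lowest-p genes of each list, and list genes called lower. It also covered the genes most like the CD3 chains, Cd4 and Cd8a. The text does not name every gene under this rule. Bcl11b, Ikzf3, Coro1a, Klrb1c and the dendritic cell, macrophage, adipocyte and wall genes are among those left out. A few other genes were named after their values were seen. Neighbouring genes and promoter letters are descriptions. Same-numbered PPE and sham arrays did not deviate together (r from −0.32 to 0.24), so the numbers were not taken as pairs.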

Additional observations from a re-analysis of the deposited data

How the results depend on the processing

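All 9 members were called in males, all 9 in the average of the sexes and 0 in the difference between the sexes, under every alternative run: median centring, quantile normalization, a filter on dim genes, averaged probe sets, all probe sets tested singly, a robust prior with intensity trend, weights per array, a fit of only the groups compared (not run for the average and the difference, which use all groups), the replicate block, each array left out, male sham 4, male sham 5 and male PPE 1 left out together, and female PPE 2 and 3 left out together. The last was chosen after the values were seen. In females the count was 7 and was 8 under quantile normalization, median centring, array weights or without those 3 male arrays, each time with Cd247 added, and 5 when only the female groups were fitted. Over all 30142 genes, 835 were called higher in females in the main fit. This number was 673 with quantile normalization, 606 with median centring and 2243 with array weights. It was 1467 without those 3 male arrays and 1334 when only the female groups were fitted. With the replicate block the count of members was also 5, without Cd3d (0.91, adjusted p = 0.155) and Cd4 (2.01, adjusted p = 0.103). Leaving out 1 array gave 4 to 7. The 4 came without female sham 2, which ended the calls of Cd3d (adjusted p = 0.0592), Cd4 (0.0708) and Cd8b1 (0.105). Without female PPE 2 and 3 it was 1, with 85 of all genes called higher in females. The PPE minus sham difference of every member stayed above 0 in each sex under every one of these alternatives. The male minus female difference, called for no member, changed sign with 1 array left out for Cd3g (−0.13 to 0.24), Cd247 (−0.02 to 0.15) and Cd8b1 (−0.46 to 0.09). In males Cd2 minus Cd3e gained a call without male PPE 1 (−0.64, adjusted p = 0.026). Cd2 exceeded the olfactory receptor level on 2 of 5 male sham arrays, and the part of this low signal was not tested. Without the 3 male arrays Cd3e minus Cd8a was 0.58 (adjusted p = 0.147). Fewer arrays raise the smallest p that this permutation test can give, so no conclusion is drawn from that lost call. Cd8a minus Cd4 ranged from −0.32 to 0.06 in males and from −0.46 to −0.25 in females with 1 array left out. Scaling moved the split of calls over all genes: 49.2% were higher in males and 60.3% with median centring, and 65.6% in females and 44.1% with quantile normalization, while the median of all genes moved by at most 0.05 log2 units. Over all genes in females, the replicate block gave 504 calls higher and 135 lower, against 835 and 438 without it. Signal over background limits Zap70 and Cd247. On some sham arrays Cd2, Cd8a, Cd3d and Cd3e were also close to or below the olfactory receptor level. The 3 female sham arrays limit the female values.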
